A study of Caenorhabditis elegans with 6 samples.

Results

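The flp genes of Caenorhabditis elegans encode the precursors of FMRFamide-like neuropeptides. They were taken as every gene in the deposited expression table whose symbol is flp followed by a number, which gave 31 of the 45519 listed genes. Whole larvae that had halted development in the first stage after hatching, a state called L1 arrest, gave 6 RNA libraries. The strain N2, the laboratory wild type, supplied 3 of them, and 3 came from linc-133(aqz 3) animals, which carry a mutant allele of a long intervening noncoding RNA gene. Animals of both strains hatched from synchronized eggs kept in M9, a salt buffer without food, for 3 days at 20 °C. The labels give neither the lesion of aqz 3 nor the number of mutant lines. Whether the 3 replicates of a strain are separate cultures is not stated either, so the p-values cover only the variation among these libraries and may not include biological variation. The comparison asks which transcripts differed between arrested larvae of the 2 strains, and the level of each flp gene in arrested larvae is described first.

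FMRFamide-like peptides are short peptides that mostly end in arginine and phenylalanine with an amidated carboxyl end (RF-amide). A flp gene encodes a precursor that is cut at basic residues inside dense-core vesicles, trimmed and amidated, and 1 precursor can release several peptides. The peptides act on G protein-coupled receptors on neurons, muscle and gut, and in the worm they are known for roles in locomotion, feeding, egg laying, fat storage and sleep. Most flp genes are expressed in small sets of neurons, so a level in RNA from whole larvae is a sum over few cells. In such RNA, fewer cells of a type and less RNA per cell cannot be told apart.

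Levels are given as FPKM, the number of sequenced fragments per kilobase of a gene, scaled to a library size and used as deposited. The whole reads behind them could be recovered. The library size implied by the deposited values was not the recovered total: it was 1.12 times that total in mutant replicate 1 and 0.900 times in mutant replicate 3. A median-of-ratios factor, the median over genes of a library's level relative to all libraries, was the same in every library (1.01). The values thus behaved as already scaled in that way. The libraries held 16108063 to 18556695 recovered reads, of which 37975 to 62759 lay on flp genes. The test covered the 16794 genes whose mean over the libraries reached 1 FPKM, 30 of them flp genes. The linc-133 gene itself was covered by 9, 6 and 5 reads in wild-type larvae and by 6, 2 and 2 in mutant larvae, numbers that overlap and are too few to check the labels. Each of the 15 markers of neurons in general was detected. Their summed levels were 1127 to 1255 FPKM in the wild type and 1104 to 1183 FPKM in the mutant. In limma, none of the 15 had an unadjusted p under 0.05, where 13.7% of all tested genes did. The summed levels of the other marker lists overlapped between the strains. They ran from 2651 to 2989 FPKM in the wild type and from 2036 to 4611 in the mutant for body wall muscle, from 3908 to 4320 and from 2774 to 4387 for intestine, from 855 to 1237 and from 996 to 1340 for pharynx, from 165 to 279 and from 206 to 261 for germline and early embryo, from 89.3 to 147 and from 101 to 148 for epidermis, and from 32.1 to 42.2 and from 27.8 to 32.9 for glia. Of these markers mir-228, a microRNA of glia, was at 0 in every library, and elt-3, a regulator of the epidermis, was the only one with an unadjusted p under 0.05, at 33.6 ± 2.69 (wild type) and 45.6 ± 4.93 FPKM (mutant; SD, n = 3 per strain). The upper end for body wall muscle was mutant replicate 3 alone, beside 2036 and 2329 FPKM in mutant replicates 1 and 2. Single genes weighed heavily in some sums. The gene asp-1, at 3175 FPKM in the wild type, made up most of the intestine sum, and snb-1, at 565 FPKM, was the largest part of the neuronal sum. The 6 yolk protein genes of adults summed to at most 1.99 FPKM in a library.

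Of the 31 flp genes, 13 lay on the X chromosome (41.9%, against 13.7% of listed protein-coding genes), 5 on III, 5 on IV, 3 on II, 3 on V and 2 on I. The genes were short: the tested flp genes had a median length of 668.5 bases, and tested protein-coding genes one of 1397 bases. Symbols of all 31 matched the Ensembl annotation of WBcel235, release 115, on the same chromosome and strand, and 12 had identical ends. The genes flp-28, flp-3 and flp-2 followed each other on the minus strand of X between 10087314 and 10095245, a stretch of 7932 bases, inside the span of W07E11.1 on the plus strand. They shared no exonic base with it. flp-1 lay likewise inside daf-10 on IV and flp-27 inside C25H3.11 on II, each with 0 shared exonic bases, while the exons of flp-11, flp-19, flp-8 and flp-33 overlapped a gene of the other strand by 17, 5, 21 and 8 bases. Whether the counting used the strand of a read is not stated, so reads from these overlaps cannot be assigned.

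The flp genes were among the more abundant transcripts of arrested larvae. In the wild type, 19 of the 30 tested genes lay at or above the 90th percentile of the 13868 tested protein-coding genes, which was 78.2 FPKM, and 28 lay at or above the 75th. The median protein-coding gene stood at 13.4 FPKM and the median of the 31 flp genes at 113.4 FPKM. Summed over the flp genes, the level was 3964, 4679 and 5081 FPKM in the wild-type libraries and 4742, 5123 and 3811 FPKM in the mutant libraries. The means were 4575 ± 566 FPKM and 4559 ± 675 FPKM (SD, n = 3 per strain), and the ranges overlapped. Few genes carried most of this sum, since the 10 highest held 64.7% of it in the wild type and 63.6% in the mutant.

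**Figure D1:**
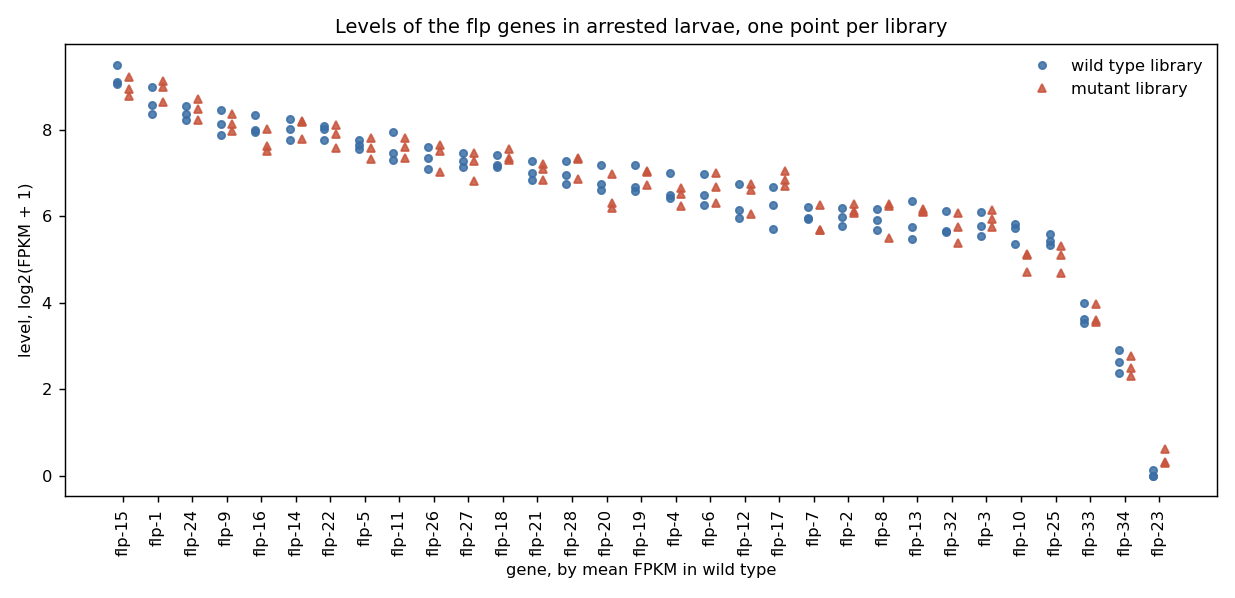
Level of each of the 31 flp genes as log2(FPKM + 1), in order of the wild-type mean, with 1 point per library (circles, 3 wild-type libraries; triangles, 3 mutant libraries). Levels run from flp-15 at 601 FPKM to flp-25 at 42.9 FPKM in small steps, and flp-33, flp-34 and flp-23 lie below.

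The highest gene was flp-15, with 548, 725 and 530.2 FPKM in the wild-type libraries and 487, 591 and 441 FPKM in the mutant libraries. Its wild-type mean of 601 ± 108 FPKM was 1.49 times that of the next gene, and the 2 wild-type ranges did not overlap. In the mutant the ranges of the same 2 genes overlapped, at means of 506 and 487 FPKM. The next was flp-1, whose peptides are released by the AVK interneurons and modulate locomotion. It had 330.4, 376 and 502 FPKM in the wild type and 561, 504 and 396 FPKM in the mutant. The highest and lowest libraries of flp-1 differed 1.52-fold in the wild type and 1.42-fold in the mutant, and the strains overlapped.

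Sleep-related flp genes stood at different heights in this order. The gene flp-24, which acts with flp-13 in the ALA neuron in the sleep that follows cellular stress, came next to flp-1 with 328, 296 and 375 FPKM in the wild type and 354, 420 and 299 FPKM in the mutant. The gene flp-11, whose peptides are released by the sleep-active neuron RIS, had 156, 175 and 246 FPKM in the wild type and 224, 194 and 162 FPKM in the mutant. The gene flp-13 had 43.5, 53.1 and 80.3 FPKM in the wild type and 67.0, 70.3 and 68.1 FPKM in the mutant. For each of the 3 genes the strains overlapped, and the wild-type replicate 3 was the highest of its strain.

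Between these, flp-9 had 234, 281 and 351 FPKM in the wild type and 278, 326 and 249.7 FPKM in the mutant. The gene flp-14, which encodes repeated copies of a peptide first isolated from the nematode Ascaris (AF2), had 217, 255 and 301 FPKM in the wild type and 291, 288 and 221 FPKM in the mutant. For flp-22 the values were 216, 258 and 271 FPKM in the wild type and 239, 273 and 189.6 FPKM in the mutant. In all 3 genes the mutant replicate 3 was the lowest mutant library, and the strains overlapped. The gene flp-5 had 186, 216 and 200.03 FPKM in the wild type and 189.97, 223 and 160.1 FPKM in the mutant. The gene flp-26 had 135, 160.4 and 193 FPKM in the wild type and 181, 198 and 129 FPKM in the mutant. Both overlapped between the strains as well.

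From flp-27 at 156 FPKM down to flp-25 at 42.9 FPKM the wild-type means fell in steps of at most 1.22-fold between neighbours, and the library ranges of all neighbours overlapped. The order of neighbours in this stretch therefore does not rest on differences beyond the spread, whereas the ranges of its 2 ends lay apart. Among its genes were flp-18, which acts on locomotion and fat storage through the receptors NPR-4 and NPR-5, at 151 ± 16.8 FPKM in the wild type and 169 ± 15.98 FPKM in mutant larvae (SD, n = 3 per strain, as in what follows). The gene flp-21, whose product is a ligand of the receptor NPR-1 that controls aggregation on food, stood at 132 ± 20.3 FPKM and 132 ± 17.5 FPKM. The gene flp-20, expressed in touch receptor neurons, stood at 115.1 ± 24.8 FPKM and 91.4 ± 28.8 FPKM. None of these differences passed the test. The gene flp-6, which is expressed in the thermosensory neuron AFD, stood at 96.2 ± 24.8 FPKM and 101.8 ± 24.1 FPKM. The gene flp-7, from which the ASI neurons signal to the intestine to control fat loss, stood at 65.1 ± 7.09 FPKM and 58.6 ± 14.7 FPKM. The gene flp-2, whose peptides promote locomotor arousal through the receptor FRPR-18, stood at 62.6 ± 8.82 FPKM and 70.4 ± 5.68 FPKM. Here too the libraries of the strains overlapped. The genes flp-8 and flp-12, known with flp-10 and flp-20 from turning during male mating, had 60.1 ± 10.1 and 79.0 ± 24.2 FPKM in the wild type and 65.1 ± 18.2 and 89.2 ± 21.1 FPKM in the mutant. The remaining genes of the stretch, flp-27, flp-28, flp-19, flp-4, flp-32 and flp-3, had wild-type means of 156, 127, 113, 99.9, 55.7 and 55.4 FPKM, and each overlapped between the strains.

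The deposited descriptions of 15 of the 31 genes name the peptides of the precursor, 62 in all with repeated copies counted, of which 59 end in RF-amide. They name between 1 peptide (flp-19, flp-23, flp-24 and flp-27) and 10 (flp-13), with 8 each for flp-1 and flp-3 and 7 each for flp-18 and flp-6. Distinct peptides were fewer in some genes: 8 for flp-13, 5 for flp-18, 2 for flp-6 and 1 for flp-14, which names 4. Between the wild-type level and the number of peptides named, copies counted, the Spearman rho was -0.118 over 15 genes. This is given as a description. The 15 include flp-23, with 1 peptide named and 1 read in the wild type. The rho rests in part on this gene near the detection limit and was not computed without it.

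At the low end, flp-33 had 10.5, 11.4 and 14.96 FPKM in the wild type and 14.6, 11.2 and 10.8 FPKM in the mutant. The gene flp-34, whose peptides modulate olfactory learning through NPR-11, had 5.17, 6.48 and 4.22 FPKM in the wild type and 3.94, 5.86 and 4.62 FPKM in the mutant. Both levels rest on gene models that are much longer than those of the annotation. The deposited length of flp-33 is 3383 bases, 7.20 times the annotated exonic length, and its span covers part of T07D10.3, which was at 0 in every library. That of flp-34 is 4080 bases, 5.70 times the annotated exonic length, and covers nra-4, listed apart at 2.18 FPKM in the wild type. Had all of their reads come from the annotated exons, flp-33 would stand at 88.4 FPKM and flp-34 at 30.1 FPKM in the wild type, so their place in the order depends on the model. The gene flp-23 was close to undetected, with 0, 0 and 1 reads in wild-type larvae and 3, 5 and 2 reads in mutant larvae. Per recovered read of the libraries, the mutant had 10.299 times the reads of the wild type, with a 95% counting interval of 1.47 to 446.9 that covers counting error only, and the gene was not tested.

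Between the strains, no flp gene passed the test. With limma on log2(FPKM + 1) and Benjamini-Hochberg adjustment over all tested genes, 0 of the 30 flp genes had an adjusted p under 0.05, and 0% of the 16794 tested genes did (0 genes, the lowest adjusted p being 0.0649). The lowest adjusted p of a flp gene was 0.242. At an unadjusted p under 0.05, flp-17 was higher and flp-10 lower in the mutant, 2 of 30 genes, where 13.7% of all tested genes passed. By direction, 7.22% of all tested genes passed as higher and 6.48% as lower. On the recovered reads, limma's voom also left 0 flp genes under the adjusted threshold, with and without quality weights. Of the 15365 genes tested on reads, voom called 23 without the weights and 465 with them. The log2 mean was higher in the mutant for 16 flp genes and lower for 14, where 49.8% of all tested genes were higher. The median log2 difference was 0.015, against -0.0015 over all tested genes. That median changes sign with the scaling, being -0.018 after quantile scaling. The split also rests on single libraries: it was 9 higher and 21 lower without wild-type replicate 1, and 22 higher and 8 lower without mutant replicate 3. With voom and quality weights it was 20 higher and 10 lower. On the X chromosome 9 of 13 flp genes had a higher log2 mean in the mutant (median 0.085), and on the autosomes 7 of 17 tested flp genes did (median -0.0080). The same share over all tested genes of X was not computed, so no difference between X and the autosomes is read from these counts.

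**Figure D2:**
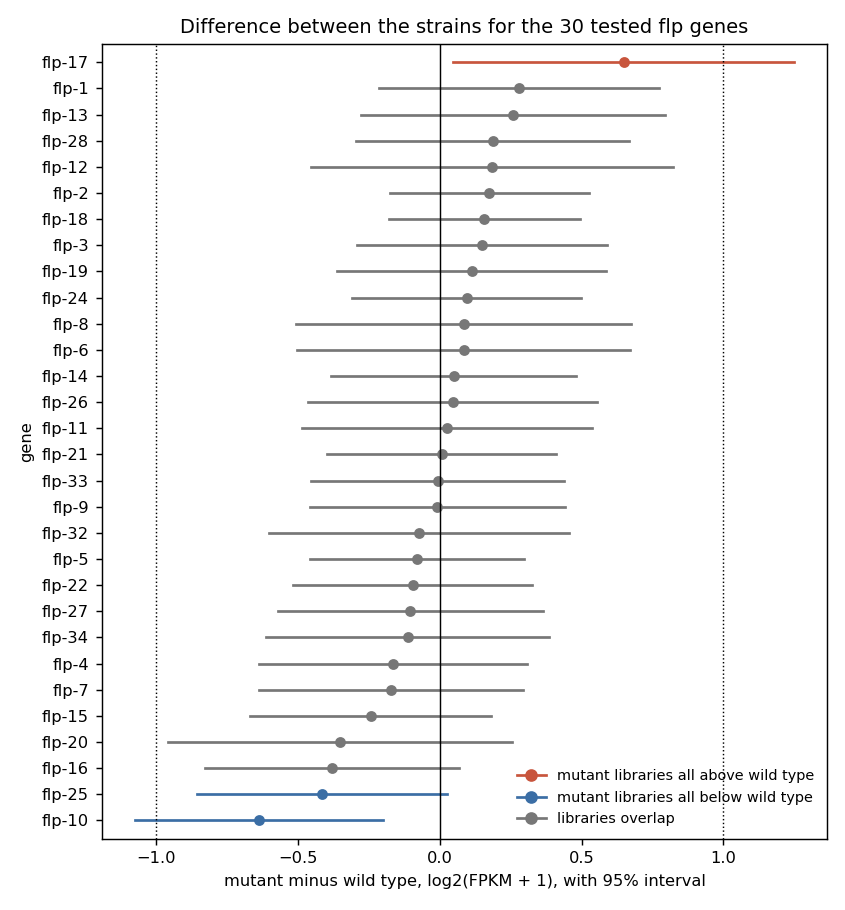
Difference between the strains for the 30 tested flp genes, mutant minus wild type in log2(FPKM + 1), with the 95% interval of the limma fit; dotted lines mark a 2-fold difference. Points are coloured where the 3 mutant libraries lie above (flp-17) or below (flp-10 and flp-25) all 3 wild-type libraries, and 28 of the 30 intervals stay within 2-fold.

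The intervals show how large a difference these libraries leave room for. For 28 of the 30 flp genes the 95% interval of the fit stayed within a 2-fold difference in either direction, and for 64.9% of all tested genes it did. The intervals of flp-10 and flp-17 reached past it. The median absolute log2 difference was 0.13 for the flp genes and 0.24 for all tested genes, and the median standard errors were 0.20 and 0.22. These levels rest on many reads, since the tested flp gene with the fewest had 249 in a library.

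In 27 of the 30 tested flp genes the libraries of the strains overlapped. The 3 mutant libraries lay above all 3 wild-type libraries in 1 gene, flp-17, and below in 2, flp-10 and flp-25. Over all tested genes these shares were 10.5% above and 9.54% below, so the flp genes separated no more often than the background.

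The gene flp-10 lies on IV, plus strand, 7865297 to 7870115, and encodes a peptide that inhibits egg laying in adults through the receptor EGL-6. It had 39.7, 51.5 and 55.0 FPKM in the wild-type libraries and 33.5, 34.1 and 25.3 FPKM in the mutant libraries, so every mutant library lay below every wild-type library. The means were 48.7 ± 8.06 FPKM and 30.95 ± 4.92 FPKM, a log2 difference of -0.64 with a standard error of 0.18 and a 95% interval from -1.08 to -0.20. The unadjusted p was 0.0111 and the adjusted p 0.242, and over the 20 alternatives the adjusted p ran from 0.0755 to 0.603. The deposited model begins 3610 bases before the annotated one.

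The gene flp-17 lies on IV, minus strand, 17190177 to 17191891, is expressed in the BAG neurons that sense carbon dioxide, and encodes peptides that act on the same receptor EGL-6. It moved the other way, with 51.3, 76.0 and 100.9 FPKM in the wild type and 114, 131 and 103 FPKM in the mutant. The lowest mutant library and the highest wild-type library lay close together. The means were 76.1 ± 24.8 FPKM and 116 ± 14.1 FPKM, a log2 difference of 0.65 with a standard error of 0.25 and a 95% interval from 0.045 to 1.25. The unadjusted p was 0.0386 and the adjusted p 0.336, with adjusted p from 0.139 to 0.671 over the alternatives. The size rests in part on the lowest wild-type library: without wild-type replicate 1 the log2 difference was 0.39 (unadjusted p = 0.0946). The receptor gene egl-6 had 3.47, 4.88 and 3.34 FPKM in the wild type and 5.42, 4.37 and 4.28 FPKM in the mutant, which overlap.

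The gene flp-25 lies on III, plus strand, 9361528 to 9365380. It had 39.4, 42.04 and 47.3 FPKM in the wild type and 38.9, 33.3 and 24.9 FPKM in the mutant, with the highest mutant library just under the lowest wild-type library. The log2 difference was -0.42 with a standard error of 0.18 (unadjusted p = 0.0607, adjusted p = 0.392). Without mutant replicate 3, its lowest library, the difference was -0.24. The gene with the next lowest p, flp-16, had 245, 323 and 255 FPKM in the wild type and 197, 258 and 179.8 FPKM in the mutant. The strains overlapped, and the log2 difference of -0.38 had an adjusted p of 0.426.

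**Figure D3:**
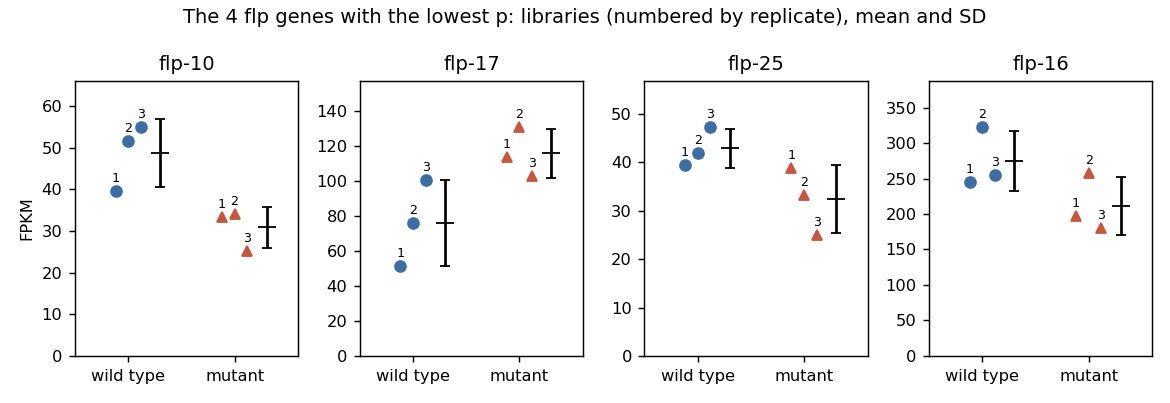
FPKM of flp-10, flp-17, flp-25 and flp-16 in each library (numbered by replicate), with the mean and SD of each strain (n = 3). The libraries of flp-10, flp-17 and flp-25 do not overlap between the strains and those of flp-16 do; the adjusted p runs from 0.242 for flp-10 to 0.426 for flp-16.

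The spread of the flp genes within a strain was shared between genes. In the wild type, replicate 1 was the lowest library in 26 of the 30 tested flp genes and replicate 3 the highest in 23. Of all tested protein-coding genes, 36.6% were lowest in replicate 1 and 32.3% highest in replicate 3. In the mutant, replicate 3 was the lowest library in 27 flp genes, against 38.9% of tested protein-coding genes. The highest mutant library was replicate 2 in 20 flp genes and replicate 1 in 10. These orders are those of the deposited scaling. The flp genes held 62759 of 18440824 recovered reads in mutant replicate 1 and 52070 of 16108063 in mutant replicate 2, a larger share in replicate 1. The median deviation of the flp genes from the mean of all 6 libraries was -0.20, -0.046 and 0.21 (log2) in wild-type replicates 1 to 3, and 0.062, 0.19 and -0.26 in mutant replicates 1 to 3. The ratio of the highest to the lowest library within a strain had a median of 1.41 in the wild type, with the largest ratio, 1.97, in flp-17. In the mutant it had a median of 1.39, with the largest ratio, 1.74, in flp-20.

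**Figure D4:**
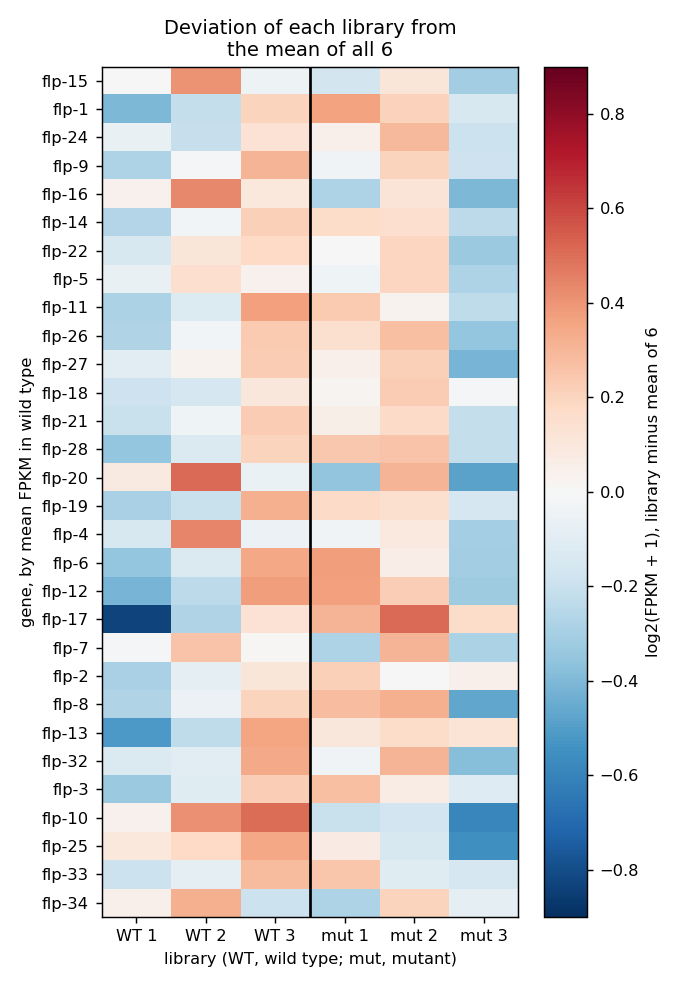
Deviation of each library from the mean of all 6, in log2(FPKM + 1), for the 30 tested flp genes in order of their wild-type mean (rows) and the 6 libraries (columns; WT, wild type; mut, mutant). Wild-type replicate 1 is the lowest wild-type library in 26 rows and mutant replicate 3 the lowest mutant library in 27.

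A smaller group of flp genes had another order. In flp-15, flp-16, flp-5, flp-20, flp-4, flp-7 and flp-34 the wild-type replicate 2 was the highest of its strain, and in all 7 the mutant replicate 2 was the highest mutant library too. That order depends on the deposited scaling. The gene flp-4 had 1102 of 18440824 recovered reads in mutant replicate 1 and 941 of 16108063 in mutant replicate 2, a larger share in replicate 1. This group was formed from the deposited values and is given as a description.

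In the mutant, gene length moved with the same libraries. In mutant replicate 3 the median deviation was -0.25 for protein-coding genes of up to 500 bases, -0.16 for longer ones of up to 1000 bases, and 0.37 for those over 4000 bases, and mutant replicates 1 and 2 had the opposite order. Of the 30 flp genes, 27 were at most 1000 bases long. With the trend on length removed from each library, an alternative added after the data had been seen, mutant replicate 3 was the lowest mutant library in 13 flp genes and mutant replicate 1 in 14. Wild-type replicate 1 was then the lowest in 23 flp genes and wild-type replicate 3 the highest in 23. The other peptide genes had a like order: the 69 tested nlp genes had median deviations of -0.15, 0.025 and 0.14 in the wild type and 0.047, 0.21 and -0.27 in the mutant. The 15 longer panneuronal genes had -0.037, 0.094 and 0.059 in the wild type and -0.29, 0.0086 and 0.12 in the mutant. The part of gene length in the flp differences was not tested beyond this alternative.

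**Figure D5:**
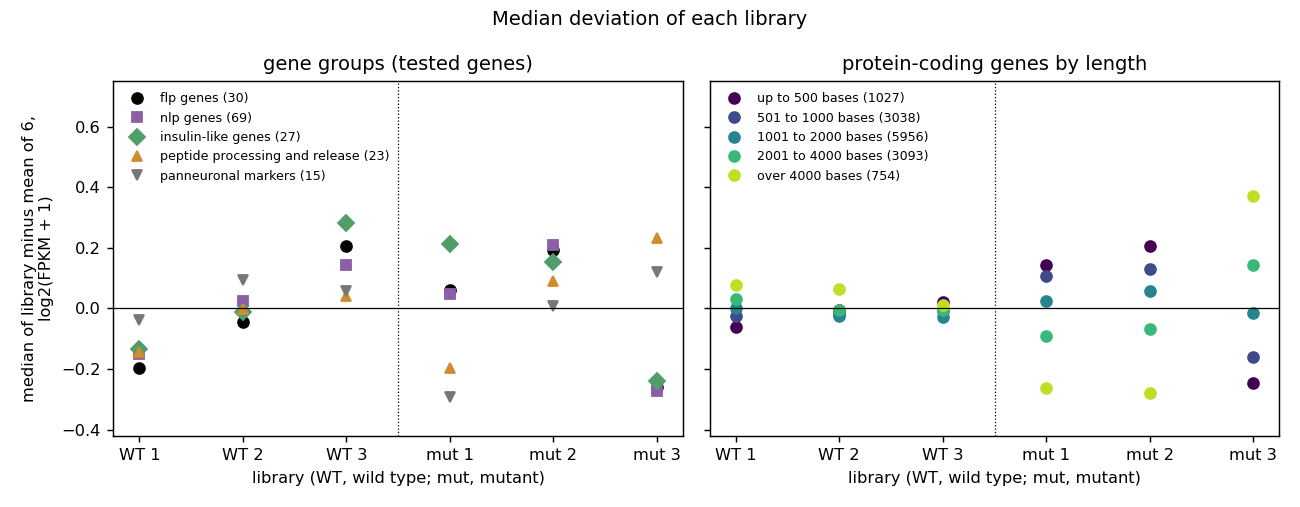
Median deviation of each library from the mean of all 6, in log2(FPKM + 1), for the flp genes and 4 other gene groups (left) and for protein-coding genes in 5 classes of length (right). In mutant replicate 3 the flp, nlp and insulin-like genes lie at -0.27 to -0.24, beside -0.25 for genes of up to 500 bases and 0.37 for genes over 4000 bases.

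The genes that cut, amidate and release the peptides were measured alongside. Of 23 such genes, each of them tested, 0 had an adjusted p under 0.05, 2 were higher and 1 lower at an unadjusted p under 0.05 (7.22% and 6.48% of all tested genes), and the median log2 difference was 0.045. That median changes sign without mutant replicate 3 (-0.049). The highest was sbt-1, a chaperone of the convertase EGL-3, at 678 ± 67.9 (wild type) and 683 ± 35.6 FPKM (mutant). The convertase gene egl-3 itself stood at 335 ± 38.3 FPKM and 360.0 ± 112 FPKM, so these 2 stood at levels like those of the highest flp genes. Those of lowest p were nep-1, a neprilysin peptidase (22.5 ± 0.814 against 32.5 ± 4.18 FPKM, adjusted p = 0.213), ric-19, which acts in dense-core vesicle maturation (20.1 ± 1.10 against 14.8 ± 0.905 FPKM, adjusted p = 0.243), the convertase gene kpc-1 (56.5 ± 3.25 against 91.4 ± 32.0 FPKM, adjusted p = 0.334) and hid-1, another dense-core vesicle gene (25.02 ± 2.18 against 20.47 ± 1.07 FPKM, adjusted p = 0.392).

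Genes listed as FLP receptors stood far lower than the flp genes. The list was taken by symbol, as every numbered frpr and dmsr gene with egl-6 and some npr genes. A symbol does not show that a receptor binds an FLP peptide. Of 44 listed receptor genes 38 were tested, with a median of 4.97 FPKM in the wild type, where the tested flp genes had 114. At an unadjusted p under 0.05, 4 receptors were higher in the mutant and 0 lower, beside 7.22% and 6.48% of all tested genes, 0 had an adjusted p under 0.05, and the median log2 difference was 0.16. It stayed between 0.10 and 0.20 over the alternatives. The mutant libraries lay above all wild-type libraries in 8 of the 38 and below in 1, beside the background of 10.5% and 9.54% given above. The highest receptor gene was dmsr-1, which encodes a receptor for FLP-13 peptides. It had 25.2, 24.1 and 25.8 FPKM in the wild type and 30.5, 34.4 and 35.4 FPKM in the mutant (unadjusted p = 0.0115, adjusted p = 0.244), while flp-13 itself overlapped between the strains. The lowest p was that of frpr-16, at 4.61 ± 0.809 FPKM in the wild type and 8.997 ± 0.374 FPKM in the mutant (unadjusted p = 0.00131, adjusted p = 0.158). Next to these came frpr-6 (1.88 ± 0.4995 against 3.24 ± 0.208 FPKM, adjusted p = 0.311) and dmsr-3 (5.76 ± 0.422 against 7.93 ± 1.21 FPKM, adjusted p = 0.347).

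Regulators that set the identity of peptide-expressing neurons were also listed, with earlier results of these data known, and none of them passed the test. Of 22 listed genes 21 were tested, 16 of them with a lower log2 mean in the mutant, where 49.8% of all tested genes had a higher one. The median log2 difference was -0.17, between -0.25 and -0.050 over the alternatives. At an unadjusted p under 0.05, 1 was higher and 3 were lower, beside 7.22% and 6.48% of all tested genes, and 0 had an adjusted p under 0.05. The mutant libraries lay below all wild-type libraries in 5 and above in 1, where 9.54% and 10.5% of all tested genes did. The gene mec-3, which specifies the touch receptor neurons that express flp-20, had 10.4, 11.04 and 10.8 FPKM in the wild type and 7.20, 7.81 and 7.94 FPKM in the mutant (unadjusted p = 0.00987, adjusted p = 0.235). The flp-20 libraries overlapped between the strains, as given above. The others of lowest p were ceh-36 (5.52 ± 1.07 against 8.33 ± 1.23 FPKM, adjusted p = 0.311), unc-3 (11.9 ± 0.800 against 8.81 ± 1.35 FPKM, adjusted p = 0.335) and ast-1 (21.9 ± 1.43 against 16.99 ± 2.42 FPKM, adjusted p = 0.353). The highest was egl-46 at 42.2 ± 16.1 and 25.4 ± 10.1 FPKM, which overlapped. The gene ets-5, needed for the expression of flp-17 and other BAG neuron genes, stood at 2.77 ± 0.464 and 2.25 ± 0.249 FPKM.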

How the data were processed

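The authors deposited FPKM per gene, per the file headers, with gene lengths, positions and descriptions. STAR 2.5.2b, Bowtie 0.12.2, StringTie and the genome build WBcel235 appear in the submitters' processing notes, and their roles, the strand setting and the annotation are not stated. A TruSeq RNA kit was used, per the labels' protocols. Groups and replicate numbers come from the sample titles. FPKM times length gave whole reads for 100% of the 131954 positive values (tolerance 0.01).

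limma 3.58.1 (R 4.3.3) was run on log2(FPKM + 1) of genes averaging 1 FPKM or more, using trend and robust moderation, the strain as the only term and Benjamini-Hochberg adjustment over all 16794 tested genes. The pseudocount of 1 understates changes of low genes. Library values were given for the 10 flp genes of highest mean, those with an unadjusted p under 0.05, those with non-overlapping strains and those with a gene model issue; companion lists show the highest member and up to 4 of lowest p, and a few flp genes and ligand or regulator partners were named for their known roles after their values had been seen. The members and lists were chosen with earlier results of these data known. Alternatives were other pseudocounts, filters, scalings and moderation, voom on the recovered reads, coding genes alone, a replicate block, leaving out each library and, added later, removal of the length trend. Median-of-ratios scaling, which is among these, divided every library by the same factor of 1.01, so it nearly repeated the main fit. The scripts were tested on simulated data. Sequences of the precursors were not used here.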

Additional observations from a re-analysis of the deposited data

How the results depend on the processing

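Over the 20 alternatives, 0 flp genes had an adjusted p under 0.05, and the lowest adjusted p was 0.0755 (flp-10 with the length trend removed). The count over all tested genes, 0 in the fit reported above, was 1 where genes had to average 10 recovered reads, 1 with protein-coding genes alone, 23 with neither trend nor robust moderation, 23 with voom, 465 with voom and quality weights (which weighted mutant replicate 3 lowest, at 0.260), 18 with the length trend removed and 9 at an adjusted p under 0.1. It was 0 to 0 when each library was left out in turn. Replicate numbers did not pair the libraries (correlations of deviations between same-numbered libraries of 0.016, -0.034 and 0.029), and the replicate block called 0 genes and 0 flp genes. The median log2 difference of the flp genes was -0.018 after quantile scaling, -0.010 with the length trend removed and between -0.098 and 0.16 without 1 library, all within the 0.22 (SD) by which library medians of a strain varied. Of 600 single-gene values 45 changed sign, in 16 genes whose log2 difference was at most 0.17, and 14 genes kept their sign throughout. After quantile scaling flp-11 was -0.014 and flp-21 -0.022. The latter was -0.0074 with total-read scaling and -0.0072 with voom. With quality weights flp-9 was 0.062, flp-27 0.034, flp-32 0.11 and flp-33 0.070. With the length trend removed flp-11 was -0.019, flp-26 -0.0015, flp-21 -0.040 and flp-33 0.031. Leaving out 1 library gave -0.11 to 0.22 for flp-11, -0.068 to 0.18 for flp-14, -0.0045 to 0.30 for flp-19, -0.093 to 0.12 for flp-21, -0.21 to 0.048 for flp-22, -0.026 to 0.22 for flp-24, -0.080 to 0.23 for flp-26, -0.24 to 0.080 for flp-27, -0.25 to 0.10 for flp-32, -0.13 to 0.13 for flp-33, -0.24 to 0.020 for flp-34, -0.28 to 0.014 for flp-4, -0.20 to 0.039 for flp-5, -0.083 to 0.28 for flp-6, -0.052 to 0.34 for flp-8 and -0.15 to 0.14 for flp-9. The unadjusted p stayed under 0.05 in 20 of 20 alternatives for flp-10, in 14 for flp-17, in 4 for flp-16 and in 2 for flp-25. Median-of-ratios scaling is counted among the 20 although it could hardly differ from the main fit. The cause of these changes was not tested. Depth limits flp-23 alone among the flp genes.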

Other observations

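In 2 other families of peptide genes no gene passed the adjusted threshold of limma either (mean ± SD, n = 3 per strain). Of 75 listed nlp genes, which encode neuropeptide-like proteins outside the FMRFamide family, 69 were tested, 3 were higher and 3 lower in the mutant at an unadjusted p under 0.05 (7.22% and 6.48% of all tested genes), and 0 had an adjusted p under 0.05. The median log2 difference was 0.00034 and turned negative with quantile scaling (-0.025). The nlp genes of lowest p were nlp-24, at 440.4, 401 and 200.02 FPKM in the wild type and 630.2, 845 and 688 FPKM in the mutant (unadjusted p = 0.00937, adjusted p = 0.235), nlp-27, at 34.9 ± 5.11 against 21.8 ± 4.91 FPKM (adjusted p = 0.257), nlp-69, at 72.8 ± 12.1 against 40.7 ± 13.2 FPKM (adjusted p = 0.262), and nlp-76, at 40.9 ± 1.97 against 60.7 ± 12.5 FPKM (adjusted p = 0.269). The highest was nlp-49, at 699 ± 158 and 826 ± 35.6 FPKM, which overlapped. The lowest nlp-24 library in the mutant stood above the highest in the wild type.

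Of 39 listed insulin-like genes 27 were tested, 1 was higher and 0 lower at an unadjusted p under 0.05, beside the same shares of all tested genes, and 0 had an adjusted p under 0.05. The median log2 difference was 0.013 and turned negative with the length trend removed (-0.034). The 1 gene was ins-34, at 13.9, 6.92 and 7.97 FPKM in the wild type and 19.2, 21.7 and 15.9 FPKM in the mutant (unadjusted p = 0.00838, adjusted p = 0.225). The highest was ins-17, at 121 ± 10.4 and 116 ± 18.7 FPKM, which overlapped.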
